A study of Homo sapiens with 12 samples.

Results

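MPP7 had the smallest p-value of all genes tested for a difference in the response to radiation between STING KO and STING WT cells. It is described here together with 6 relatives and binding partners, MPP1, MPP5, MPP6, DLG1, LIN7C and CASK, which makes 7 genes of the 58288 listed. MPP7 had been chosen because, among the 15973 genes with a level of at least 1 transcript per 1000000 (TPM) in 3 or more libraries, its difference between the radiation effects in STING KO and STING WT cells ranked 1 by p-value, although 127 genes had a difference of larger size. Its values are therefore given as a description without a test, whereas the other 6 were chosen by family and by known binding and carry the tests of the fit to all genes. All 7 passed the filter on low values.

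RNA was sequenced from FaDu, an established HNSCC line. STING WT cells carried non-targeting gRNA 2 and STING KO cells carried STING gRNA 2. The genotypes therefore also differ in guide and in the line made with it. STING loss cannot be told apart from other differences between these lines. Per the study's methods, the lines were made with lentiviral Cas9, guides were selected with puromycin, and whether the KO cells were a single clone was not given in the sources used here. Cells of each genotype were left unirradiated (0 Gy) or received 2 Gy on each of 4 days, and each of these 4 groups has 3 libraries. The labels do not say that replicates came from separate cultures, so p-values measure the spread between these libraries, which may be technical. In bulk RNA, a smaller share of expressing cells and less RNA per cell cannot be told apart.

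The proteins of this family are membrane-associated guanylate kinase scaffolds, which hold several partners together beneath the plasma membrane. In epithelial cells they sit at cell junctions and help to set the apical and basolateral domains. MPP7 binds DLG1 and LIN7C in a complex at the junction. MPP5, also called PALS1, joins the Crumbs receptor to PATJ, and CASK joins LIN7 and Mint adaptors at the basolateral membrane. MPP1 is known from the red cell membrane skeleton, and MPP6, also called PALS2, is another LIN7 partner.

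TMEM173, which encodes STING, was at 21.7, 23.5 and 21.1 TPM in unirradiated WT libraries and at 5.18, 5.29 and 6.96 TPM in unirradiated KO libraries. It was at 26.1, 21.4 and 21.7 TPM in irradiated WT libraries and at 6.35, 7.41 and 7.08 TPM in irradiated KO libraries, so the genotypes did not overlap. All 8 squamous epithelial markers reached 1 TPM. Their sum was 8619 to 8648 TPM in WT and 8372 to 10102 TPM in KO before radiation, and 7993 to 8516 and 7310 to 8312 TPM after it. The squamous sum was thus lower after radiation in both genotypes without overlap, and its part in the radiation differences was not tested. Of 5 fibroblast markers COL1A1 was at 6.34 to 9.23 TPM, and the other 4, LUM and DCN included, were at or below 0.0738 TPM in every library. Of 5 leukocyte markers CD14 was at 2.62 to 4.35 TPM, and the other 4 were at or below 0.402 TPM, with PTPRC at or below 0.0894 TPM. The leukocyte sum was 2.62 to 3.08 TPM in WT and 3.77 to 4.59 TPM in KO before radiation, and 3.29 to 3.74 and 3.07 to 3.41 TPM after it, so it separated the unirradiated genotypes, and its part in the KO differences was not tested. Among 4 endothelial markers, CDH5 (8.51 to 19.8 TPM) and VWF (2.60 to 4.49 TPM) were present and PECAM1 and KDR were at or below 0.0989 TPM. The endothelial sum was 11.5 to 13.9 TPM in WT and 13.0 to 15.9 TPM in KO before radiation, and 18.3 to 18.7 and 19.9 to 23.9 TPM after it. It moved with radiation, and its part in the radiation differences was not tested.

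MPP7 (ENSG00000150054.18) spans 283494 bases of the minus strand of chromosome 10 (GRCh38, chr10:28050993-28334486), with 8 annotated transcripts and 8 start positions. RefSeq (GRCh38.p14) gives it a pair of start sites that lie 20941 bases apart, and the promoter windows of both are shown because the deposited table sums over transcripts and does not say which start is used. The annotated span begins at 28334486, upstream of both windows, and the promoter of that start is not shown. Each window runs from 250 bases before to 50 bases after the start, 5′ to 3′ along the gene. Capitals mark the CCAAT box (CCAAT) and the GC box (GGGCGG) on either strand, the latter read as CCGCCC on the other strand, and a pair of these overlap by a base in the upstream window.
MPP7 upstream start, chr10:28303015-28303314, minus strand: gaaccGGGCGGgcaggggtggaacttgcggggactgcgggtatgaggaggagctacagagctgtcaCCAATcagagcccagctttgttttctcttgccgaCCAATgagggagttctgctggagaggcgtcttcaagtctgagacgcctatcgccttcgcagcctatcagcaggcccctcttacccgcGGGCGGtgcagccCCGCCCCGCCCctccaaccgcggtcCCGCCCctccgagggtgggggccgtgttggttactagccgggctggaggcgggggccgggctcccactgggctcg
MPP7 downstream start, chr10:28282074-28282373, minus strand: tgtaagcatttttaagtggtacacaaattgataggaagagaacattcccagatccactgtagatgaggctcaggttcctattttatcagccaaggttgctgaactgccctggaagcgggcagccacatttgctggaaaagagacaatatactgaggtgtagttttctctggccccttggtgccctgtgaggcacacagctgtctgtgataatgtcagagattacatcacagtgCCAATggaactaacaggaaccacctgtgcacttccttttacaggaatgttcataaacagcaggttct

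The 2 windows differed in base composition. The upstream window was 67.3% GC with 23 CpG dinucleotides, and held 2 CCAAT boxes and 5 GC boxes. The downstream window was 45.3% GC with 1 CpG, 1 CCAAT box and 0 GC boxes. Over all 35116 windows of the table the medians were 58.7% GC and 14 CpG, 34.6% of windows held a CCAAT box and 45.0% held a GC box. The letters of an AP-1 site (TGANTCA, in 7.71% of all windows) or of an interferon-stimulated response element core (GAAA repeated after any 2 bases, in 3.57%) were not found in either MPP7 window, nor in those of the other members. Windows were found for 6 of the 7 genes, with none for MPP6. The windows of MPP1, MPP5 and CASK were the richest in GC among the members, at 71.3%, 72.0% and 78.3%, and LIN7C was at 63.3%. DLG1 had 5 windows of 40.3% to 67.3% GC. A match is a description of the letters and not a binding site.

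In unirradiated cells the mean MPP7 level in KO was 0.480 of that in WT, and after radiation it was lower in WT and higher in KO than before. In unirradiated WT libraries MPP7 was at 18.6, 17.2 and 17.2 TPM, and in unirradiated KO libraries at 8.57, 8.26 and 8.64 TPM. After radiation it was at 13.4, 13.8 and 12.5 TPM in WT libraries and at 15.3, 16.0 and 15.9 TPM in KO libraries. Every library of a group lay apart from every library of the other 3 groups. The order was unirradiated WT, irradiated KO, irradiated WT and unirradiated KO from high to low. Of the 15973 genes tested, 173 (1.08%) had 4 groups apart. MPP7 was chosen from these same libraries, so its separation follows in part from the choice.

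**Figure D1:**
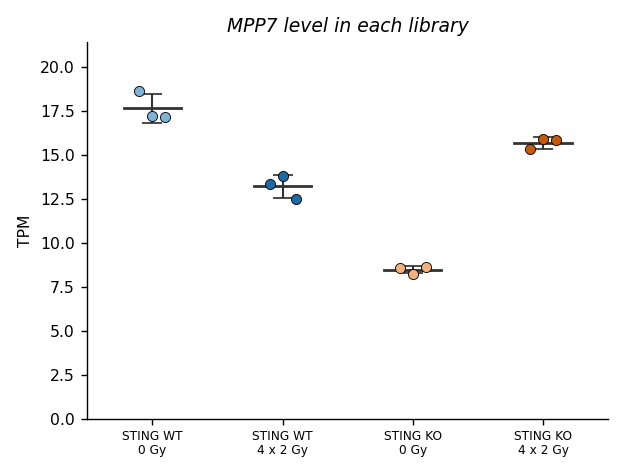
MPP7 level in TPM (y axis) in each of the 12 libraries by genotype and radiation (x axis), with points for libraries and bars for the mean ± SD (n = 3). The unirradiated KO libraries lie lowest, at 8.26 to 8.64 TPM, and irradiated libraries lie below unirradiated ones in WT and above them in KO.

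The mean was 17.7 ± 0.826 TPM (SD, n = 3) in unirradiated WT cells and 8.49 ± 0.204 TPM in unirradiated KO cells. After radiation the means were 13.2 ± 0.668 TPM in WT and 15.7 ± 0.342 TPM in KO, a ratio of 1.19, so the genotypes changed order. The ratio of irradiated to unirradiated means was 0.749 in WT and 1.85 in KO. As differences in log2(TPM + 1), the KO effect was -0.98 (SE 0.059) without radiation and 0.23 after it, and the radiation effect was -0.39 in WT and 0.82 in KO. The difference between the 2 radiation effects was 1.21. These are the values that chose the gene, so the SE and any interval on them do not allow for that choice.

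The genes just below MPP7 in that ranking were AHNAK, a very large membrane-associated protein, with a difference of 0.87, and MRE11, a nuclease of the double-strand break repair complex, with 1.01. The fourth was IFIT1, an interferon-induced gene, with -1.01. Of these, MRE11 shared MPP7's opposite signs, at -0.52 in WT and 0.48 in KO, whereas AHNAK was at -1.05 and -0.18. Over all genes tested, 3 passed an adjusted p of 0.05 for the difference between radiation effects (0.0188%), and none of the 6 relatives and partners did by limma. At an unadjusted p under 0.05 there were 2 of the 6, against 6.61% of all genes.

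Among all genes tested, the libraries of 31 genes (0.194%) were lower after radiation in WT and higher after radiation in KO with no overlap in either genotype, and those of 36 genes (0.225%) showed the opposite pair of directions. MPP7 was among 14 genes (0.0876%) that had its direction in each of the 4 comparisons without overlap. MPP7 was chosen from these same values, so its place there follows in part from the choice. How many genes would show such patterns without any effect was not tested, so these counts are a description.

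Ranked by level within a library, the members kept nearly the same order throughout. DLG1 (111 to 145 TPM) was highest in every library, followed by MPP5 (74.0 to 93.2 TPM), LIN7C (51.1 to 60.9 TPM) and CASK (26.1 to 37.0 TPM), with no overlap between neighbors in this order. The 3 lowest genes overlapped, with MPP7 at 8.26 to 18.6 TPM, MPP6 at 8.57 to 15.6 TPM and MPP1 at 7.24 to 13.3 TPM. MPP7 held rank 5 in every unirradiated WT and every irradiated KO library, rank 6 or 7 in the unirradiated KO libraries, and rank 5 or 6 in the irradiated WT libraries. TPM is scaled per transcript length, so these levels can be set side by side.

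**Figure D2:**
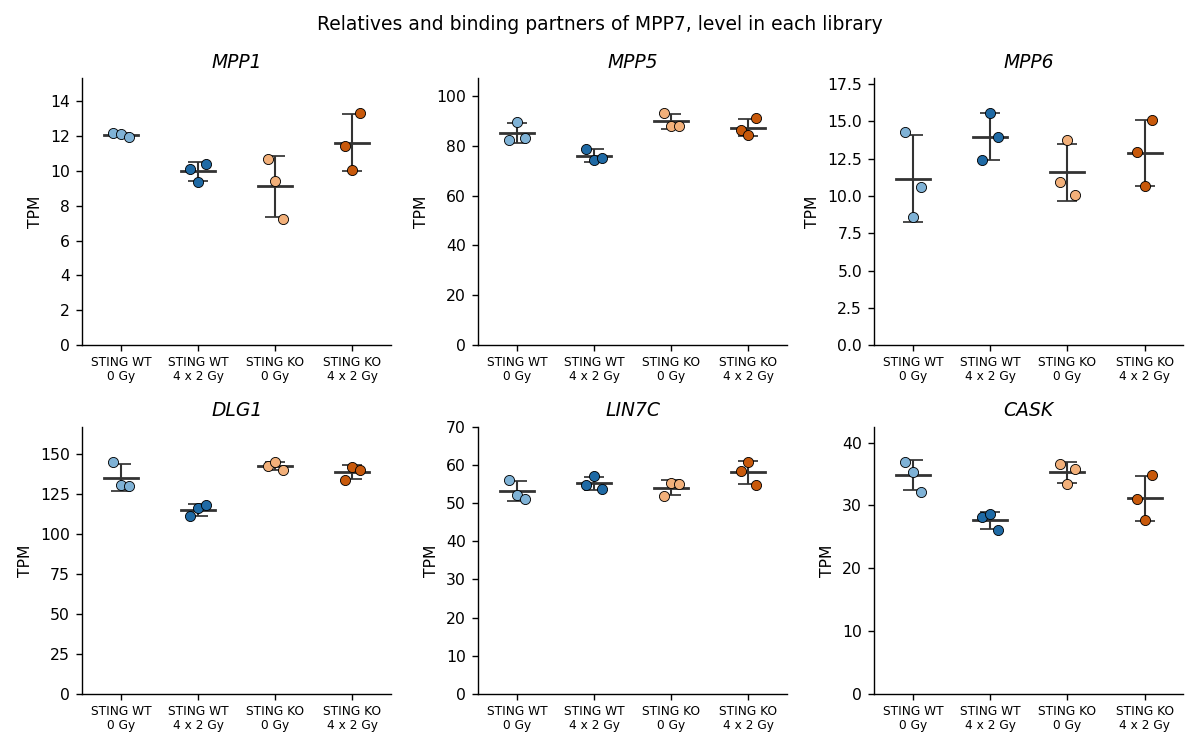
Levels in TPM (y axes, each from 0) of MPP1, MPP5, MPP6, DLG1, LIN7C and CASK in each library by group (x axes), with points for libraries and bars for the mean ± SD (n = 3). DLG1, MPP5 and CASK libraries are lowest in irradiated WT cells apart from 1 irradiated KO library of CASK, and MPP6 and LIN7C groups overlap throughout.

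DLG1 is the Discs large homolog that pairs with MPP7 through their L27 domains. It was lower in irradiated WT cells than in any other group. DLG1 was at 145, 131 and 130.0 TPM in unirradiated WT libraries and at 111, 117 and 118 TPM in irradiated WT libraries. In KO it was at 143, 145 and 140 TPM before radiation and at 134, 142 and 140 TPM after it. No irradiated WT library overlapped with any library of the other groups, while the other 3 groups overlapped.

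Radiation lowered DLG1 in WT cells by a ratio of means of 0.853 (log2 difference -0.23, SE 0.051, limma adjusted p = 0.038). After radiation it was 20.3% higher in KO than in WT (log2 difference 0.26, adjusted p = 0.019). Both comparisons use the same irradiated WT libraries. In unirradiated cells the KO effect was 0.08 (95% interval -0.04 to 0.19, adjusted p = 0.55), and the radiation effect in KO cells was -0.04 (interval -0.15 to 0.07, adjusted p = 0.75). The difference between the radiation effects was 0.19 (95% interval 0.03 to 0.35, limma adjusted p = 0.73), so a difference between the genotypes in the response was not shown.

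The 2 DLG1 calls were close to the threshold. The call in irradiated cells was lost without irradiated WT replicate 1 (adjusted p = 0.080) or 2 (0.058), or irradiated KO replicate 2 (0.069) or 3 (0.068). The radiation call in WT was lost on leaving out any single library but irradiated KO replicate 1, with adjusted p of 0.053 to 0.13.

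MPP1, the erythrocyte p55 protein, was at a lower mean in KO than in WT before radiation and at a higher mean after it, and no difference passed the test. It was at 12.2, 12.1 and 11.9 TPM in unirradiated WT libraries and at 10.7, 9.43 and 7.24 TPM in unirradiated KO libraries, which did not overlap. After radiation it was at 10.1, 9.38 and 10.4 TPM in WT libraries and at 11.4, 10.1 and 13.3 TPM in KO libraries. The KO libraries were more widely spread than the WT libraries both before and after radiation.

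For MPP1 the KO effect in unirradiated cells was -0.38 (95% interval -0.67 to -0.10, limma adjusted p = 0.19). The radiation effect was -0.25 in WT (adjusted p = 0.33, no overlap) and 0.32 in KO (adjusted p = 0.21). The difference between them was 0.58 (95% interval 0.18 to 0.98, adjusted p = 0.67) and ranked 206 of 15973 genes. Without unirradiated KO replicate 3, its lowest library, the KO effect was -0.24 and the difference between radiation effects 0.44.

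MPP5 and CASK were both lower in irradiated than in unirradiated WT cells without overlap, and neither passed the test. MPP5 was at 82.4, 89.6 and 83.2 TPM in unirradiated and 78.8, 74.0 and 74.9 TPM in irradiated WT libraries (log2 difference -0.16, 95% interval -0.28 to -0.05, limma adjusted p = 0.12). In KO it was at 93.2, 87.9 and 88.0 TPM before and 86.4, 84.2 and 90.9 TPM after radiation. All irradiated KO libraries were above all irradiated WT libraries (difference 0.20, adjusted p = 0.067), and this passed the threshold with median-of-ratios factors (adjusted p = 0.039) and with quantile normalization (0.038).

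MPP5 shares part of its locus with ATP6V1D, a proton pump subunit on the opposite strand that was at 77.8 to 179 TPM. Whether reads were counted by strand is not given in the sources used here, so reads of the overlapping part cannot be told apart. ATP6V1D was higher in irradiated than in unirradiated WT libraries, the reverse of MPP5. It did not pass the test (0.66, limma adjusted p = 0.17).

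CASK was at 37.0, 35.3 and 32.2 TPM in unirradiated and 28.2, 28.7 and 26.1 TPM in irradiated WT libraries (log2 difference -0.32, 95% interval -0.51 to -0.13, limma adjusted p = 0.069). Without irradiated KO replicate 3 the adjusted p was 0.046. In KO it was at 36.5, 33.4 and 35.9 TPM before and 31.0, 27.7 and 34.8 TPM after radiation, which overlapped (-0.18, adjusted p = 0.30). The difference between the radiation effects was 0.14 (interval -0.12 to 0.41, adjusted p = 0.88).

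LIN7C, the PDZ adaptor that binds MPP7, and MPP6 overlapped between groups in every comparison. LIN7C was at 51.1 to 60.9 TPM, and its 4 differences ran from 0.02 to 0.10 (limma adjusted p = 0.39 to 0.89). The intervals for LIN7C reached no further than -0.10 and 0.23. MPP6 was spread widely within groups, for example at 14.3, 8.57 and 10.6 TPM in unirradiated WT libraries. Its largest difference, the radiation effect in WT, was 0.32 (interval -0.08 to 0.72, adjusted p = 0.39).

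**Figure D3:**
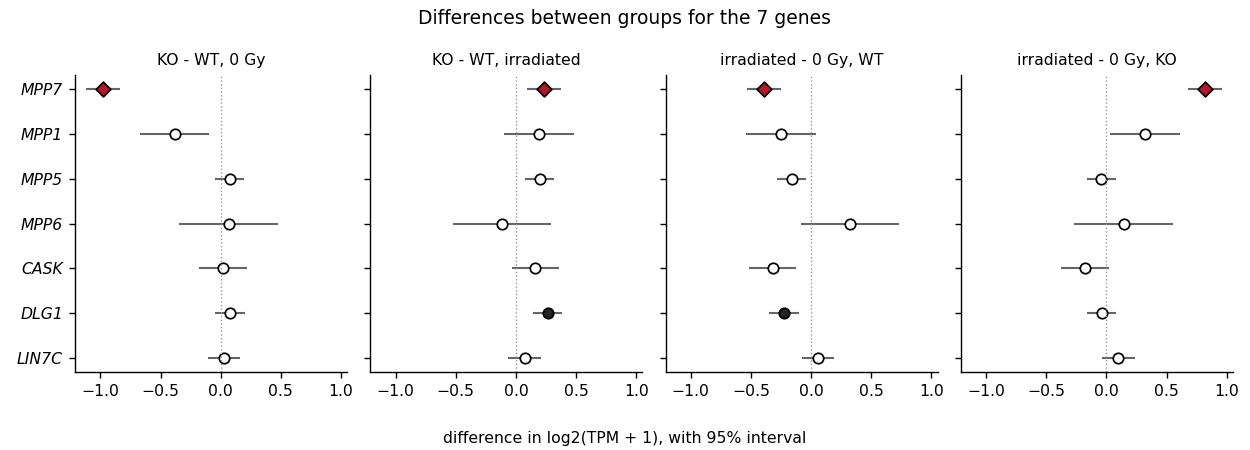
Differences in log2(TPM + 1) (x axes) of the 7 genes (y axis) in 4 comparisons, with 95% intervals from the fit to all 12 libraries. Red diamonds are MPP7, which is not tested and whose intervals do not allow for its choice. Filled circles passed an adjusted p of 0.05 and open circles did not. DLG1 is filled in irradiated cells (0.26) and for radiation in WT (-0.23).

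Counted over the 6 relatives and partners, 0 passed an adjusted p of 0.05 by limma for the KO effect in unirradiated cells (1 at an unadjusted p under 0.05, against 14.3% of all genes), where 1.73% of all genes passed. In irradiated cells 1 of 6 passed, against 3.59% of all genes, and 2 were at an unadjusted p under 0.05, against 17.9%. For radiation 1 of 6 passed in WT, against 3.74%, and 3 were at an unadjusted p under 0.05, against 18.2%. In KO 0 of 6 passed by limma, against 3.69%, and 1 was at an unadjusted p under 0.05, against 18.1%. Groups without overlap were found for 1 of 6 in unirradiated cells (20.6% of all genes), 2 of 6 in irradiated cells (24.1%), 4 of 6 for radiation in WT (24.8%) and 0 of 6 for radiation in KO (24.3%). The 4 were MPP1, MPP5, DLG1 and CASK, all lower after radiation.

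The median log2 difference of the 6 genes for radiation in WT was -0.19, beside 0.02 over all genes tested, and in KO it was 0.03 beside 0.02. For the KO effect it was 0.04 without radiation, beside -0.02, and 0.18 after it, beside -0.02. With so few genes these medians are a description.

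Polarity and junction genes outside the 7 were read from 10 lists of 68 further genes, of which 60 were tested and 8 were too low. The lists held other DLG, LIN7 and p55 relatives, the Crumbs, PAR and Scribble modules, tight and adherens junction proteins, angiomotins with Hippo effectors, and the protein 4.1 and Mint partners of these scaffolds. Among the closest relatives, MPP2 (12.6 to 14.7 TPM) and MPP3 (7.25 to 11.3 TPM) did not pass the test in any comparison, and MPP4, LIN7A and DLG2 were too low to test. No gene of the lists passed for the difference between radiation effects by limma, where 0.0188% of all genes passed. Of the 60 tested, 3 were at an unadjusted p under 0.05, against 6.61% of all genes.

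**Figure D4:**
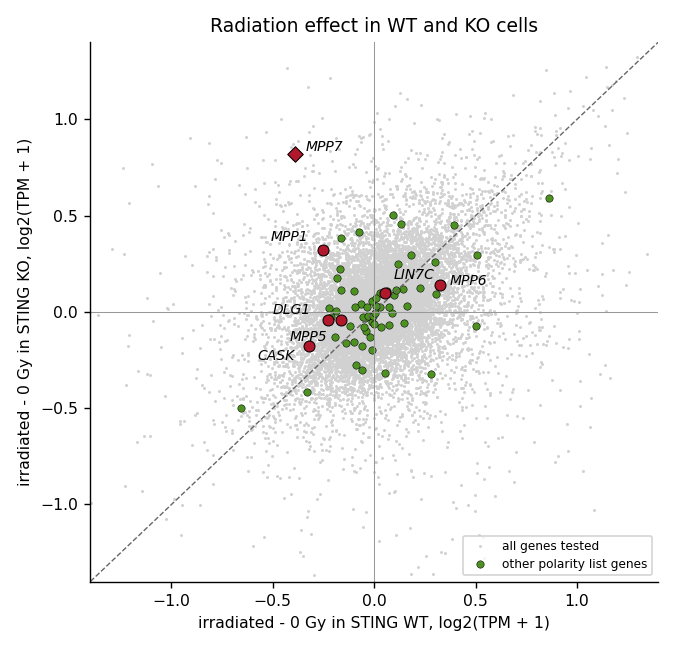
Radiation effect as a difference in log2(TPM + 1) in STING WT (x axis) and in STING KO cells (y axis), with gray points for all genes tested, green for polarity list genes and red for the 7 members. The dashed line marks equal effects, 55 genes beyond ±1.4 are not drawn, and the effects share no libraries. MPP7 lies at -0.39 and 0.82, away from the line.

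Radiation changed a few polarity genes. In WT cells 3 of the 60 rose and 2 fell, which is 8.33%, beside 3.74% of all genes. In KO cells 3 rose and 2 fell, which is 8.33%, beside 3.69% of all genes. The list medians were -0.01 in WT and 0.02 in KO, beside 0.02 over all genes in both.

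NECTIN1, an adhesion receptor of adherens junctions, fell in both genotypes, from a mean of 95.4 to 75.7 TPM in WT (log2 difference -0.33, limma adjusted p = 0.0014) and from 106 to 78.8 TPM in KO (-0.42, adjusted p = 3.8e-04). PARD6B, a PAR complex adaptor for atypical protein kinase C, rose in both, from 20.4 to 27.1 TPM in WT (0.39, adjusted p = 0.0059) and from 20.6 to 28.5 TPM in KO (0.45, adjusted p = 0.0027). EPB41L1, a protein 4.1 family member, fell from 51.3 to 32.2 TPM in WT (-0.66, adjusted p = 0.013) and from 53.1 to 36.9 TPM in KO (-0.50, adjusted p = 0.042). The EPB41L1 call in WT was lost without irradiated WT replicate 2 or 3 (adjusted p = 0.053 for each), and that in KO was lost without any library but irradiated WT replicates 1 and 3 (0.054 to 0.11).

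In WT alone the test was also passed by the tight junction proteins CLDN3 and OCLN. CLDN3 was at 0.859, 1.28 and 0.939 TPM before and at 2.88, 3.51 and 1.83 TPM after radiation (0.86, limma adjusted p = 0.022). This call was lost without unirradiated WT replicate 1 or 3 or irradiated WT replicate 1 or 2 (adjusted p = 0.066 to 0.085). OCLN, at a mean of 21.6 and 26.8 TPM (0.30, adjusted p = 0.049), lost its call without any library but unirradiated KO replicate 1 (0.051 to 0.15). In KO both genes also rose without overlap and did not pass. The differences there were 0.59 for CLDN3 (limma adjusted p = 0.086) and 0.26 for OCLN (0.084).

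In KO alone it was passed by EPB41L5, a protein 4.1 relative that binds Crumbs, and DLG4, a synaptic relative of DLG1. EPB41L5 rose from 21.4 to 26.5 TPM (0.30, limma adjusted p = 0.0077), and DLG4 rose from 17.0 to 23.8 TPM (0.46, adjusted p = 0.030). In WT, EPB41L5 also rose without overlap (0.18, limma adjusted p = 0.063), whereas DLG4 overlapped (0.13, adjusted p = 0.53). The DLG4 call was lost without unirradiated KO replicate 1 or 2 or irradiated KO replicate 2 or 3 (0.084 to 0.10). None of these genes passed for the difference between radiation effects (limma adjusted p of 0.74 or more). DLG4 started lower in KO than in WT, without overlap, and this did not pass (-0.39, limma adjusted p = 0.085). After radiation its genotypes overlapped (-0.07, limma adjusted p = 0.77).

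STING KO cells differed from WT cells in 1 polarity gene before radiation (1.67%, beside 1.73% of all genes) and in 3 after it (5%, beside 3.59%). CGN, the tight junction scaffold cingulin, was higher in KO both without radiation, at 6.99 to 7.78 TPM in WT and 9.50 to 10.5 TPM in KO (0.38, limma adjusted p = 0.013), and after it, at 8.23 to 8.49 and 10.6 to 11.4 TPM (0.36, adjusted p = 0.013). MAGI3, another junction scaffold, was at 28.5 to 30.4 TPM in irradiated WT libraries and 35.6 to 37.5 TPM in irradiated KO libraries (0.30, adjusted p = 0.015). SCRIB, of the Scribble module with which DLG proteins act, was at 65.1 and 50.4 TPM (-0.36, adjusted p = 0.040).

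Several of these calls rested on single libraries. The CGN call in unirradiated cells was lost without unirradiated WT replicate 1 or unirradiated KO replicate 2 or 3 (adjusted p = 0.052 to 0.067). That in irradiated cells was lost without irradiated WT replicate 2 or 3 (0.050 to 0.053). MAGI3 lost its call without irradiated WT replicate 2 or 3 or irradiated KO replicate 1 (0.053 to 0.066). SCRIB kept its call only without unirradiated WT replicate 1 or 2, unirradiated KO replicate 1 or irradiated WT replicate 3, and was at 0.055 to 0.14 otherwise.

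Across the 12 libraries the gene most like MPP7 in log2(TPM + 1) was INVS, a ciliary protein, with a Pearson's r of 0.93 (Spearman's rho 0.94). It was followed by MED6 (0.91), a Mediator subunit, PHC1 (0.90), a Polycomb protein, WDR19 (0.87), a ciliary transport protein, and LIN37 (0.87), of the DREAM complex. With quantile normalization 3 of these 5 genes stayed among the 5 most like MPP7. The most opposed were CD14 (-0.86), HS3ST1 (-0.85) and KLHL15 (-0.84). These are the extremes of 15972 correlations over 12 libraries in 4 groups, and are given as a description. INVS was at 19.1, 14.8, 16.8 and 17.6 TPM on average in unirradiated WT, unirradiated KO, irradiated WT and irradiated KO cells, a smaller range than that of MPP7. Among the relatives MPP1 was most like MPP7 (r = 0.70, rank 116), and the other 5 ran from -0.24 to 0.16.

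The tested genes near MPP7 had smaller differences than MPP7. MPP7 was chosen for its difference between radiation effects, and 127 of 15973 genes had a larger one. That its neighbors lie below it therefore follows largely from the choice and is a description. Within 1 Mb of the gene 48 others are annotated, 47 were listed and 11 were tested. Their differences between radiation effects ran from -0.44 to 0.12 and their KO effects without radiation from -0.36 to 0.12, beside 1.21 and -0.98 for MPP7. The nearest tested gene, ARMC4, 51.9 kb away, was at 0.05 and -0.11 at a level of 0.618 to 1.42 TPM. WAC, 198 kb away and at 127 to 141 TPM, was at -0.02 and -0.03.

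MASTL, a mitotic kinase 864 kb away, was the only neighbor to pass the test, for radiation in WT (0.22, limma adjusted p = 0.046) and in KO (0.25, adjusted p = 0.028). Its call in WT was lost on leaving out any single library (0.053 to 0.15), and its call in KO on leaving out any KO library (0.052 to 0.096). Of the other genes, AC022021.1, which overlaps MPP7 on the opposite strand and starts 236 bases from its upstream RefSeq start, was at 0 to 0.070 TPM, and MIR8086 within MPP7 was listed at 0.

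**Figure D5:**
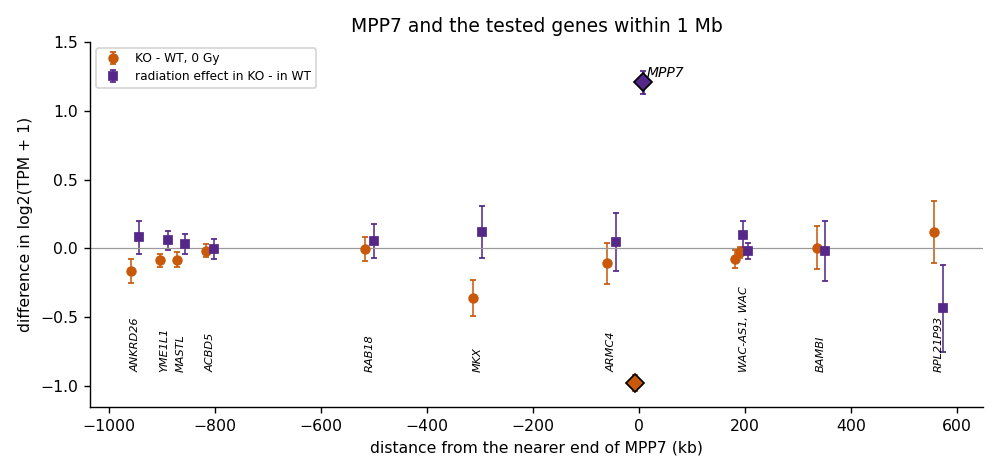
Differences in log2(TPM + 1) ± SE (y axis) of MPP7 (diamonds) and of the 11 tested genes within 1 Mb, against their distance from the nearer end of MPP7 in kb (x axis, negative toward lower coordinates, markers shifted by 8 kb to either side). Orange marks the KO effect without radiation and purple the radiation effect in KO minus that in WT. The neighbors lie between -0.44 and 0.12, and MPP7 at -0.98 and 1.21.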

How the data were processed

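RNA purified with oligo-dT beads was sequenced as paired ends from 12 FaDu libraries. The authors deposited 1 table of TPM for 58288 genes, and per the submitters' processing notes HISAT2, StringTie, DESeq2 and hg38 were used; their roles and versions, the annotation and the strand setting are not given in the sources used here. Columns named NT2 were taken as STING WT (non-targeting gRNA 2) and those named A63 as STING KO. TPM sums to 1000000 in each library and keeps no depth, so the spread between libraries is the measure of error and counting error cannot be given.

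The 15973 genes that reached 1 TPM in 3 or more libraries were fitted as log2(TPM + 1) with 4 group means in limma 3.58.1 under R 4.3.3 (lmFit, contrasts.fit, eBayes with trend, 8 residual degrees of freedom). Benjamini-Hochberg adjustment was made over all genes tested within a comparison, with a threshold of 0.05. A fold on this scale understates the change of low genes. The code was tested on simulated data. Beside the 7 members and TMEM173, genes were named if they were the up to 5 polarity list genes with the smallest adjusted p past the threshold, the 5 most and 3 least correlated with MPP7, next to it in rank, or tested within 1 Mb. ATP6V1D, MPP2, MPP3, MPP4, LIN7A, DLG2, the overlapping genes and the genes of the closing section were named after their values were seen. Identifiers were matched to GENCODE 29 without version (58025 of 58288). The members and lists were chosen with earlier results of these data known. Alternatives were another pseudocount (0.1), no filter or a mean TPM of at least 5, 2 scalings, eBayes without trend, a replicate block, only the libraries compared, and each library left out.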

Additional observations from a re-analysis of the deposited data

Results flagged for a closer look

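MPP7 was singled out for opposite radiation effects in the 2 genotypes. All 3 irradiated WT libraries (12.5 to 13.8 TPM) were below all 3 unirradiated WT libraries (17.2 to 18.6 TPM), and all 3 irradiated KO libraries (15.3 to 16.0 TPM) were above all 3 unirradiated KO libraries (8.26 to 8.64 TPM). The difference between the radiation effects was 1.21 in log2(TPM + 1). It was not tested, since MPP7 was chosen for it.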

How the results depend on the processing

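The MPP7 difference between radiation effects stayed between 1.17 and 1.30 over 19 alternatives and was 1.30 with a pseudocount of 0.1, where the TMEM173 difference was -1.92 (-1.71 to -1.89 with single libraries left out, beside -1.77). With single libraries left out the MPP7 value was 1.17 to 1.24. A fit of only the libraries compared was not possible for it, as it needs all 4 groups.

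Replicate numbers did not pair the libraries: same-numbered libraries of different groups had correlations of deviations of -0.060 to 0.064 over 18 pairs. With the replicate block 378 genes passed for the KO effect in irradiated cells (573 without it), 315 for radiation in WT (597), 359 for radiation in KO (590) and 1 for the difference between radiation effects (3). Members passing were 0 in irradiated cells and 0 for radiation in WT, and polarity genes passing for radiation in KO were 3.

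Fits of only the 6 libraries compared called 103 genes for the KO effect without radiation (276 in the fit to all libraries), 252 after it, 166 for radiation in WT and 195 in KO. They called 0 members, and 0, 0, 3 and 2 polarity genes in that order. Without a filter on low values 0 members and 3 polarity genes passed for radiation in WT, 3 polarity genes for radiation in KO, and 7 genes for the difference between radiation effects. Without the trend 0 members passed for radiation in WT, and 1 gene passed for the difference.

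Median-of-ratios factors called 2 members in irradiated cells and 3 polarity genes for the KO effect without radiation, and quantile normalization called 2 and 2. A mean TPM of at least 5 called 2 polarity genes there. Of calls for the KO effect without radiation 26.8% were higher in KO, and 37.0% with median-of-ratios factors.

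With single libraries left out, all-gene counts were 172 to 292 and 313 to 542 for the KO effect without and with radiation, 242 to 526 and 268 to 553 for radiation in WT and KO, and 1 to 9 for the difference between radiation effects. Members called stayed at 0 to 1, and polarity genes at 0 to 2, 0 to 3, 2 to 5 and 3 to 6. The lowest counts came without unirradiated KO replicate 2, irradiated WT replicate 1, irradiated WT replicate 1 and unirradiated KO replicate 2. Differences that changed sign had not passed the test: the KO effect without radiation of MPP6 (-0.095 to 0.24, negative without unirradiated WT or KO replicate 2), LIN7C (-0.0017 to 0.064, negative without unirradiated WT replicate 3) and CASK (-0.036 to 0.061, negative without unirradiated WT replicate 3 or unirradiated KO replicate 1), and that of MPP6 after radiation (-0.23 to 0.0042, positive without irradiated KO replicate 2). The causes were not tested. TPM without depth limits what can be said of low genes.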

Other observations

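Beside MPP7, 13 genes were lower in KO than in WT without radiation, higher in KO after it, lower after radiation in WT and higher after radiation in KO, each without overlap between the libraries. They were named after their values were seen and are given as a description. They include MRE11, a nuclease of double-strand break repair (25.9, 17.3, 17.7 and 24.5 TPM on average in unirradiated WT, unirradiated KO, irradiated WT and irradiated KO cells), PPP5C, a protein phosphatase (42.6, 38.1, 39.4 and 48.8 TPM), PPP1R12B, a myosin phosphatase subunit (8.62, 6.92, 6.43 and 8.79 TPM), and UBN1, a histone chaperone subunit (45.5, 38.6, 34.5 and 47.3 TPM). KIAA1191 was at 57.2, 36.9, 36.1 and 63.8 TPM, with a wide spread in irradiated KO libraries (46.9 to 78.9 TPM). NT5C3A was at 52.8, 40.9, 45.4 and 53.5 TPM, and YIPF2, C18orf21 and HCG18 were also among them. The rest were SNORA6, a small nucleolar RNA, AC006480.2, RPS24P8 and MTRNR2L12. RPS24P8, a pseudogene, and MTRNR2L12, a gene derived from mitochondrial sequence, can share reads with near-identical copies, so that their values are uncertain. In unirradiated cells the highest KO and lowest WT libraries were at 7.77 and 7.78 TPM for PPP1R12B. For MTRNR2L12 they were at 3.43 and 3.46 TPM, so the lack of overlap of both genes rests on small gaps. SNORA6 was at or below 0.00675 TPM in irradiated WT libraries, and its lowest irradiated KO library was at 0.00797 TPM. Its lack of overlap there rests on values near the floor and cannot be read.

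CD14, among the genes most opposed to MPP7, is also a leukocyte marker. It was at 2.62 to 4.35 TPM, while PTPRC, the leukocyte marker CD45, was at or below 0.0894 TPM in every library. CLDN4, a claudin of the lists, ranged from 1.22 to 104 TPM over the 12 libraries, and its differences had an SE of 1.83, so none could be read.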
